A study of Homo sapiens with 2 samples.

Results

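The genes described here encode proteins of the mitochondrial ribosome, apart from MRPS36. They were chosen by name, as all genes whose symbol is MRPL or MRPS followed by a number and at most 1 further letter. The rule found 78 genes among the 16645 annotated genes with a read, and 1557 of the 237608 transcript models belonged to them. All 78 are protein-coding, and every annotated gene that the rule fits had reads in both libraries. By their known place in the ribosome, 51 of the 78 encode proteins of the large subunit and 26 proteins of the small subunit. Of the large subunit genes, 30 have bacterial homologues and 21 are specific to mitochondria, and the corresponding numbers for the small subunit are 16 and 10. MRPS18A and MRPS30 are counted with the large subunit, where their proteins sit despite the letter S. Of the related genes MRPS18A, MRPS18B and MRPS18C, only MRPS18C is counted with bacterial homologues, so the split does not follow sequence relation alone. MRPS36 carries the name of the family, but its protein is now known as a component of the 2-oxoglutarate dehydrogenase complex. It is placed in neither subunit, but it is counted in the values given for the 78 genes together.

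The RNA came from GM12878, a B-lymphoblastoid cell line made by transforming B cells with Epstein-Barr virus. Native RNA strands were sequenced directly on the Oxford Nanopore platform, from the 3′ end (kit SQK-RNA002, flow cell FLO-MIN106D) in 2 replicate libraries that form 1 group, with no treatment and no second genotype or cell line. The study's title names a long-read method for finding and quantifying transcripts, and the comparison the design allows is that of replicate 2 with replicate 1. The labels do not say whether the replicates came from separate cultures, so a p-value here measures the difference between the reads of these libraries only, which may be technical.

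Mitochondria keep a ribosome of their own, which makes the few proteins encoded by mitochondrial DNA, all of them parts of the respiratory chain and the ATP synthase. Its RNAs are encoded in mitochondrial DNA, whereas every one of its proteins is encoded in the nucleus, made in the cytosol and imported. A part of these proteins descends from the bacterial ribosome and the rest was added during the evolution of mitochondria.

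Replicate 1 held 1360368 reads and replicate 2 held 1510998, so that a single read corresponded to 0.735 and 0.662 CPM, the usual scaling of reads by the library total. The 78 genes together received 11220 and 11174 reads. B cell genes were read in both libraries, with CD79A at 688 and 679 CPM and MS4A1 at 265 and 275 CPM, and the lowest of the 5 on the list, PAX5, at 39.7 and 46.3 CPM. Of 5 genes of other lineages, ALB, HBG1 and GATA1 had 0 reads, which allows up to 2.21 and 1.99 CPM, COL1A1 had 2 and 3 reads, and the T cell gene CD3E had 5 and 16. Over all annotated genes, reads in models that match an annotated transcript (known models) made up 56.5% of replicate 1 and 46.4% of replicate 2.

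MRPL33 encodes a small protein of the large subunit with a bacterial homologue, and it was the one member without a single read in a known model. Its annotated coding sequences are shown because they contain a very short second exon, described with the gene's models further on. They run from the start codon to the last codon before the stop, read 5′ to 3′ on the plus strand of chromosome 2 (GRCh38, GENCODE release 29). The second exon, of 19 bases at chr2:27772674-27772692, is in capitals.
MRPL33-201 (chr2:27771778-27779479, 195 coding bases): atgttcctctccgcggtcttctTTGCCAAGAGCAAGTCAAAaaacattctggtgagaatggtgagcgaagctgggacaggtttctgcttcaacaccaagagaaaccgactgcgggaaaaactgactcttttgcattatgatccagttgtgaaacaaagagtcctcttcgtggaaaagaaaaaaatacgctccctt
MRPL33-202 (chr2:27771778-27779553, 162 coding bases): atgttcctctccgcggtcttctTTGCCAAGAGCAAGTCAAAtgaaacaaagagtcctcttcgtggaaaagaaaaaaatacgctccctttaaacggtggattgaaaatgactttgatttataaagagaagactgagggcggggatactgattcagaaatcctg

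The genes lie on 21 chromosomes, and RefSeq promoter windows (GRCh38.p14, from 250 bases before to 50 bases after the annotated start) were at hand for 69 of the 78. The letters CCGGAAG, a core recognised by ETS factors such as GABPA, stood on either strand in 29 of the 69 windows (42.0%), against 22.0% of the 7833 windows of other genes with at least 10 reads and 10.7% of all 27305 windows. The letters AAGATGGC, a form of the YY1 motif, stood in 20 windows (28.99%), against 6.27% of those of other genes with reads. The letters GCATGCGC, a part of the motif of NRF1, a factor known for its role in nuclear genes of mitochondria, stood in 6 windows (8.70%), against 6.23%. The letters CCAAT were in 20 windows (28.99%, against 37.6%) and TATAAA in 2 (2.90%, against 4.93%). Of the 69 windows, 27 held none of the ETS, NRF1 and YY1 letters and 1 held all of them. The AAGATGGC letters include ATG, and a window that reaches past the start can hold a start codon, which was not separated from other matches. These are matches of letters only, and no binding was measured in this series.

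Stretches of 150 bases, from 120 before to 30 after the start, are shown for the 3 members of highest level that held both the ETS and the YY1 letters in them, and for MRPL12, the member of highest level, which held none of the 5 motifs. Matches on either strand are in capitals, and each sequence is given 5′ to 3′ on the strand of the gene.
MRPL51 (chr12:6493233-6493382, minus strand): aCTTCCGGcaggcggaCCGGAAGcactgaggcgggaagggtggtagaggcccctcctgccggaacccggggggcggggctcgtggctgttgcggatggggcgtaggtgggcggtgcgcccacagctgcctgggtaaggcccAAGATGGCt
MRPL20 (chr1:1407264-1407413, minus strand): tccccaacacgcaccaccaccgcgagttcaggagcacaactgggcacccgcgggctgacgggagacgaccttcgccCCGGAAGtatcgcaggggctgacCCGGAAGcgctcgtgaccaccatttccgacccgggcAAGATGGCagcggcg
MRPL52 (chr14:22829767-22829916, plus strand): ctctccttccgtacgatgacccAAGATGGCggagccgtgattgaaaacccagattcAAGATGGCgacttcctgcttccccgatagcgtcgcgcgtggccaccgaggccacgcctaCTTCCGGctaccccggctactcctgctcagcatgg
MRPL12 (chr17:81703247-81703396, plus strand): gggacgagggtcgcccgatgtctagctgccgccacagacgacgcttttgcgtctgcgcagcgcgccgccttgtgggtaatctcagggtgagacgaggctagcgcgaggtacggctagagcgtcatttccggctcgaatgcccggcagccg

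As a family, the 78 genes took 0.825% of all reads in replicate 1, with a 95% Wilson interval from 0.810 to 0.840%. In replicate 2 they took 0.740%, with an interval from 0.726 to 0.753%. The mean was 0.782% ± 0.0603 (SD, n = 2). Intervals of this kind cover counting error only. The 2 intervals do not overlap. The 85 genes of cytosolic ribosomal proteins took 23.2% and 23.9% of the reads, and the 13 mRNAs encoded in mitochondrial DNA took 1.60% and 0.823%. On the log2 scale, the share of the mitochondrial ribosomal protein genes changed by -0.16 between the libraries, that of the cytosolic ribosomal protein genes by 0.04 and that of the mitochondrially encoded mRNAs by -0.96. In bulk RNA, less RNA per cell and fewer cells that make it cannot be told apart, and the part of library making in these differences was not tested.

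The members differed 18.0-fold in level, from 14.8 to 266 CPM. A direct RNA read stands for 1 molecule, and CPM is therefore not divided by length here. The median of the members was 91.2 CPM in replicate 1 and 82.7 CPM in replicate 2. The highest was MRPL12, whose protein forms the stalk of the large subunit, with 413 reads (304 CPM) in replicate 1 and 344 reads (228 CPM) in replicate 2, a mean of 266 CPM ± 53.7 (SD, n = 2). MRPL51, a large subunit protein specific to mitochondria, followed with 254 and 228 CPM, a mean of 241 ± 18.3. MRPL4, a homologue of bacterial L4, had 232 and 238 CPM (235 ± 4.22). MRPL37, specific to mitochondria, had 229 and 211 CPM (220 ± 12.9). MRPS34, a small subunit protein specific to mitochondria, had 230 and 194 CPM (212 ± 25.6). The replicates of MRPL12, MRPL51 and MRPL4 overlapped in level, so the order at the top was not resolved. The 6 members above 200 CPM, these 5 and MRPL20, held 17.7% of the family's reads.

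At the lower end stood MRPL1, a homologue of the protein of the L1 stalk, with 24 and 18 reads (17.6 and 11.9 CPM, 14.8 ± 4.05). It was followed by MRPS31 with 33.1 and 21.2 CPM (27.1 ± 8.42), MRPL50 with 26.5 and 41.0 CPM (33.7 ± 10.3), MRPL46 with 44.1 and 33.8 CPM (38.9 ± 7.32) and MRPS30 with 38.2 and 48.3 CPM (43.3 ± 7.13). MRPS31 encodes a small subunit protein specific to mitochondria, and MRPL50, MRPL46 and MRPS30 encode large subunit proteins of that kind. When the members were ordered by mean CPM, the replicate values of 73 of the 77 neighbouring pairs overlapped. The 4 pairs that did not were MRPL4 above MRPL37, MRPL20 above MRPS12, MRPS24 above MRPS6 and MRPS31 above MRPL1. Across genes, the CPM of the libraries had a Spearman's rho of 0.948 (77 genes with a known model, which share library and depth).

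Divided by the read-weighted length of the known models, the order changed. MRPL20, with short known models of 722 bases on average, was highest at 289 CPM per kilobase, ahead of MRPL12 at 258, MRPL51 at 222 and MRPS34 at 211. MRPL42 was lowest at 5.23 CPM per kilobase. The known reads that set its length lay in part in MRPL42-206, an annotated model of 15582 bases with 19 and 14 reads. Known models held only 42.9% and 18.8% of the reads of MRPL42. MRPL1 (9.92 CPM per kilobase) and MRPL50 (10.1) stood next to it. A read assigned to a known model matches its junctions and need not cover its whole length.

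**Figure D1:**
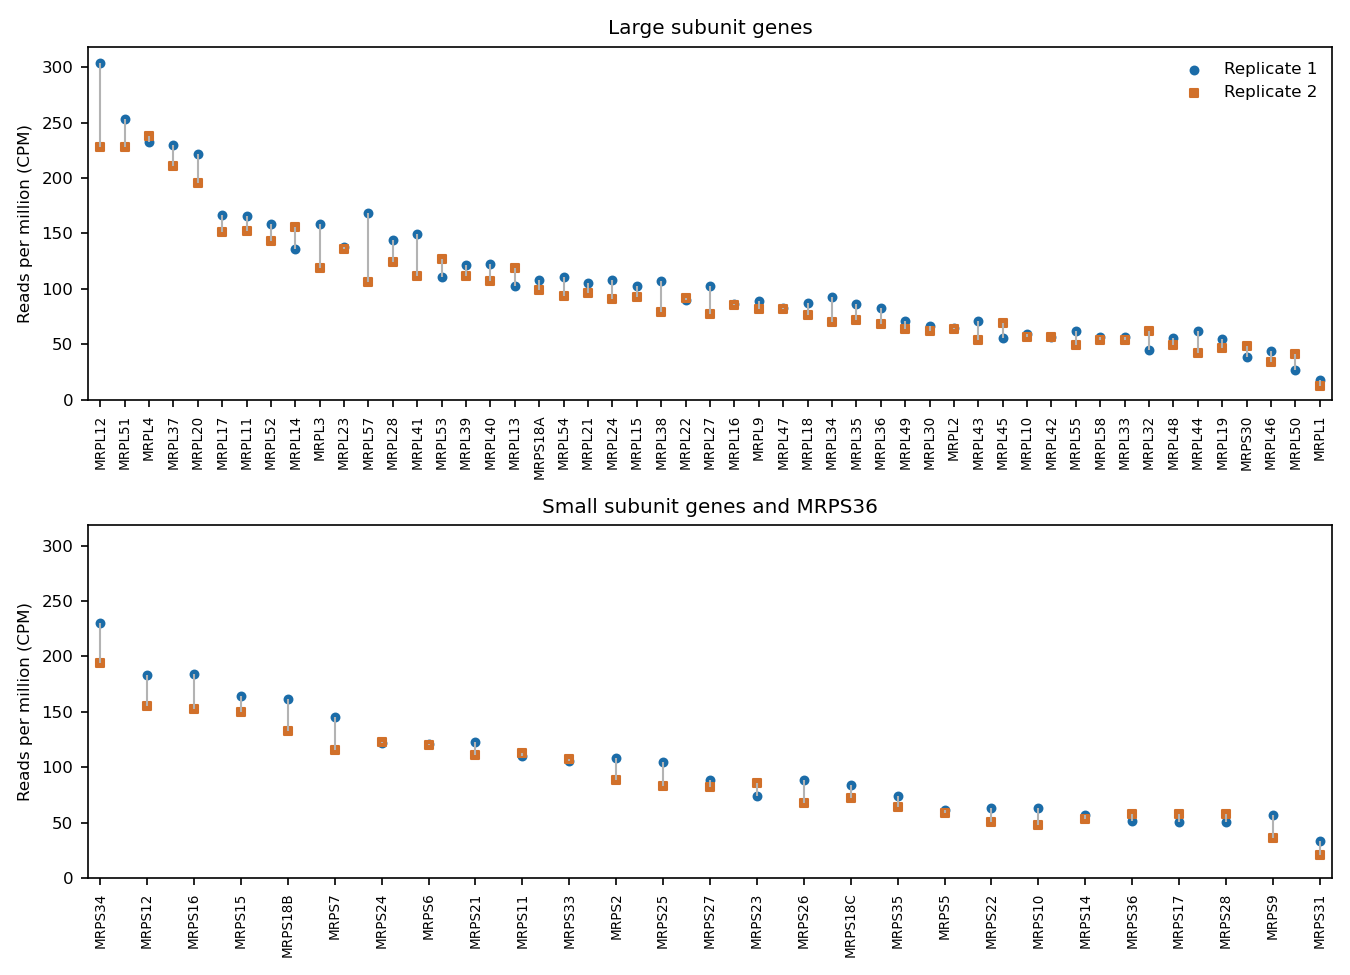
Level of each gene in CPM (reads scaled by the library total, linear axis from 0) in replicate 1 (circles) and replicate 2 (squares), with large subunit genes above and small subunit genes and MRPS36 below, each ordered by mean CPM; a grey line joins the replicates. Levels run from 14.8 CPM for MRPL1 to 266 CPM for MRPL12, and most neighbours overlap.

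The medians of the 2 subunits lay close together in CPM, and their order depended on the scale. The median of the 51 large subunit genes was 92.6 CPM in replicate 1 and 81.4 CPM in replicate 2 (87.0 ± 7.93, SD, n = 2), and that of the 26 small subunit genes was 96.7 and 84.4 CPM (90.5 ± 8.69). The difference of the medians, large minus small, was -3.51 CPM ± 0.753 (SD, n = 2) and was negative in both libraries. Per kilobase the difference had the opposite sign, at 30.3 CPM per kilobase ± 4.47. By origin, the medians in CPM were 87.3 for the large subunit genes with bacterial homologues, 93.0 for those specific to mitochondria, 105 for the small subunit genes with bacterial homologues and 85.5 for those specific to mitochondria. Genes are not replicates, and no test was made of these medians.

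MRPS18 exists as 3 related genes whose proteins take different places in the ribosome. MRPS18B had 162 and 132 CPM (147 ± 20.8), MRPS18A 108 and 99.3 CPM (104 ± 6.21) and MRPS18C 83.8 and 72.1 CPM (77.97 ± 8.25). The replicate values of the 3 paralogues did not overlap, in this order. On the scale of CPM per kilobase MRPS18A had 98.0, MRPS18B 96.0 and MRPS18C 52.3. The replicate values of MRPS18A (102 and 93.8) and MRPS18B (106 and 86.4) overlapped there, so the order of these 2 was not resolved. MRPS36 had 70 and 87 reads, 51.5 and 57.6 CPM (54.5 ± 4.33), and did not pass the test between the libraries described next (log2 ratio 0.16, adjusted p of 0.883, exact test).

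Gene by gene, the libraries were compared by an exact binomial test (two-sided, with proportions set by the library totals). It covered 10634 annotated genes with a sum of at least 10 reads, and p-values were adjusted over them after Benjamini and Hochberg, with 0.05 as the threshold. Of all genes tested, 5.05% passed. Of the 78 members, 2 passed, MRPL57 and MRPL12, and both were lower in replicate 2. An unadjusted p under 0.05 was found for 14 of the 78 members and for 1681 of the 10634 genes. The members' share of 2 in 78 is not above that of all genes. All 78 log2 ratios of replicate 2 to replicate 1 lay within 1, from -0.67 to 0.62.

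MRPL57 (chr13:21176645-21179084, plus strand) encodes a large subunit protein specific to mitochondria. It had 229 reads in replicate 1 and 160 in replicate 2 (168 and 106 CPM), which is -0.67 on the log2 scale (exact binomial test, adjusted p = 0.000375). Reads in its known model fell from 137 to 80, while those in single intervals without a splice junction (genomic models) numbered 89 and 79. MRPL12 (chr17:81703357-81707526, plus strand) had 413 and 344 reads, which is -0.41 on the log2 scale (exact binomial test, adjusted p = 0.00325). Its known model went from 313 to 227 reads, and its incomplete models from 77 to 94. Both genes kept their direction and stayed past the threshold under TMM and DESeq2 scaling and when only known models were counted. No annotated gene overlaps MRPL57, and MRPL12 is overlapped on its own strand by AC139530.2, which had 6 and 5 reads.

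Among members with at least 100 reads, the largest decreases by ratio after that of MRPL57 were those of MRPS9, a homologue of bacterial S9, from 77 to 54 reads (log2 ratio -0.66, exact test, adjusted p = 0.133), and of MRPL44, which carries a ribonuclease III-like domain, from 84 to 63 reads (-0.56, adjusted p of 0.193, exact test). The largest increases were those of MRPL32, from 61 to 94 reads (0.47, adjusted p of 0.327, exact test), MRPS30, from 52 to 73 (0.33), and MRPL45, from 76 to 104 (0.30). None of these 5 passed the threshold.

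Small differences ran mostly one way. Of the 78 members, 62 had a log2 ratio below 0 (79.5%), and the median was -0.14, whereas 48.9% of all genes tested were below 0 and their median was 0.01. Of the protein-coding genes, 50.2% were below 0. With TMM scaling 63 members were below 0, and with DESeq2 size factors 62. Such scaling shifts every ratio by the same amount and leaves the distance of 0.15 between the medians as it is. The order of the medians turned over with a count restricted to known models: the members then had a median of -0.19 and all genes -0.26, and 55 of 77 members were below 0. With genomic models left out, the medians were -0.13 for the members and -0.08 for all genes.

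Transcripts of the family are short, with a median known length of 1355 bases against 2302 bases for 8128 other protein-coding genes. Between 1022 and 1845 bases lay 39 members and 1958 other protein-coding genes, whose median log2 ratios were -0.15 and -0.05, with 79.5% and 56.0% below 0. Within the family, length and log2 ratio had a Spearman's rho of 0.09 over 77 genes. The genes share their libraries and are not independent, so these are descriptions without a test.

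**Figure D2:**
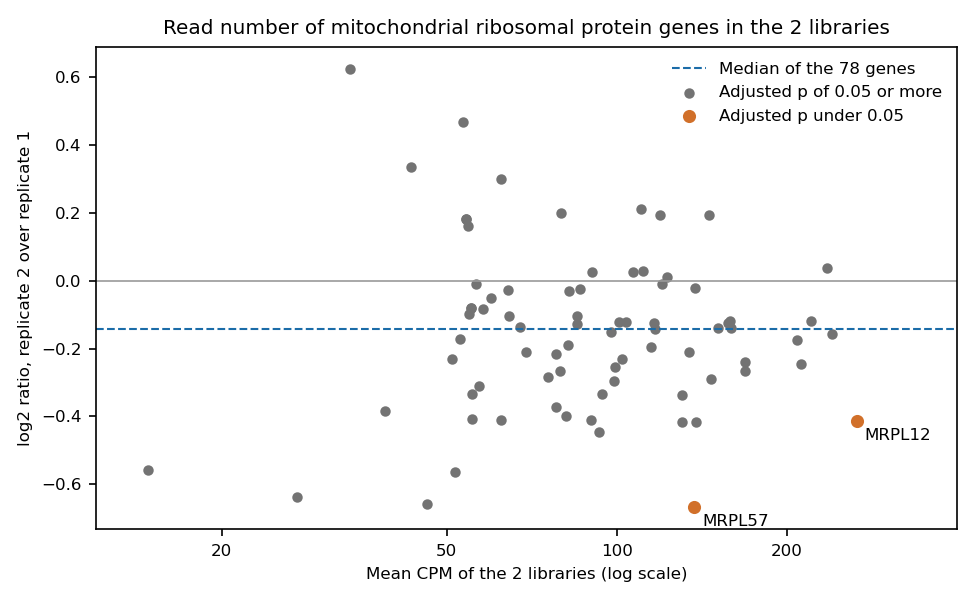
Log2 ratio of CPM, replicate 2 over replicate 1, against mean CPM (log scale) for the 78 genes; orange points have an adjusted p under 0.05 in the exact binomial test, and the dashed line is the members' median of -0.14. MRPL57 and MRPL12 are the orange points, and 62 of the 78 points lie below 0.

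The reads were next divided by the category that the authors' program gave to each transcript model. Known models follow an annotated transcript. Incomplete splice matches (ISM) carry a stretch of its junctions or a piece of 1 exon. Models with new combinations of annotated splice sites are called NIC, models with a new splice site NNC, and genomic models overlap the gene without its splicing. Known models received 69.5% of the members' reads in replicate 1 (68.6 to 70.3%) and 57.7% in replicate 2 (56.7 to 58.6%), a difference of -11.8 percentage points. The ISM share rose from 15.5% to 24.3%, by 8.76 points, and the genomic share from 6.87% to 10.6%, by 3.74 points, with Wilson intervals apart in each case. NIC models held 3.27% and 2.88% and NNC models 4.86% and 4.55%.

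Over all annotated genes the known share was lower, at 56.5% and 46.4%, the ISM share was 24.0% and 32.3% and the genomic share 10.9% and 15.3%. The difference between the libraries in the known share was -10.1 points there. NIC and NNC models together fell by 2.47 points over all genes, from 8.51% to 6.04%, and by 0.70 points in the members, from 8.13% to 7.43%, where the Wilson intervals overlapped. Between 1022 and 1845 bases, members had 70.4% and 56.5% of their reads in known models and the other protein-coding genes 60.4% and 46.7%. In the members by role, the known share was 67.0% and 55.1% for large subunit genes with bacterial homologues, 73.6% and 61.5% for large subunit genes specific to mitochondria, 73.7% and 64.2% for small subunit genes with bacterial homologues and 61.0% and 45.9% for small subunit genes specific to mitochondria. It was lower in replicate 2 in all 4 groups.

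**Figure D3:**
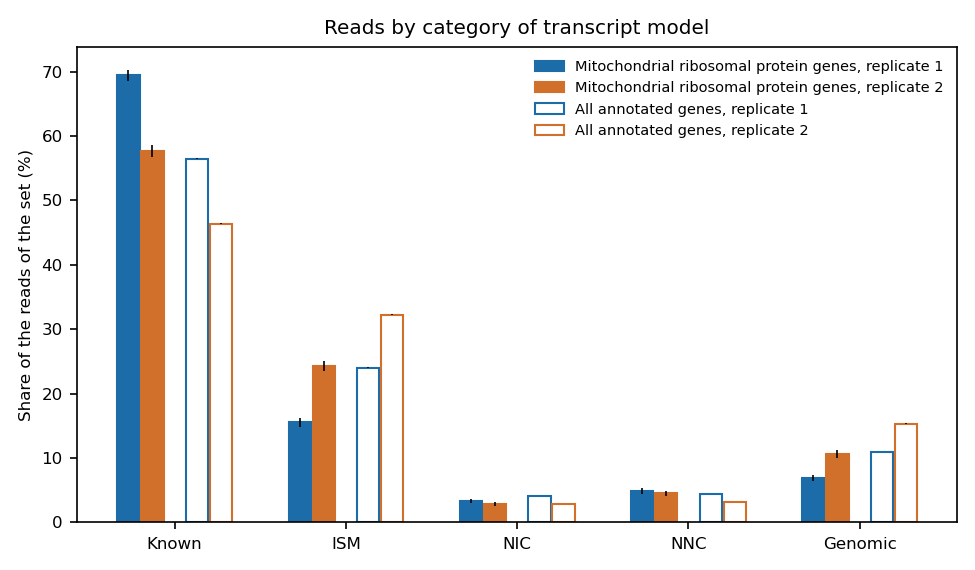
Share of reads (%, axis from 0) by category of transcript model for the 78 genes (filled bars) and for all annotated genes (open bars) in replicate 1 (blue) and replicate 2 (orange), with 95% Wilson intervals as error bars. The members have 69.5% and 57.7% of their reads in known models, and all annotated genes 56.5% and 46.4%.

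For single genes, reads in known models were set against all other reads of the gene with a two-sided Fisher's exact test, over the 6340 annotated genes with at least 20 reads in each library. Of all genes tested, 27.1% passed after Benjamini-Hochberg adjustment, and 26.9% passed with a lower known share in replicate 2. Of the 77 members tested, 27 passed (35.1%), all with a lower known share in replicate 2, and 71 of the 77 were lower by value (92.2%), as were 79.4% of all genes tested. The members' share past the threshold was not above that of all genes throughout: with at least 50 reads in each library it was 44.0% against 45.6%, with genomic models left out 27.3% against 26.0%, and with known set against ISM models only 32.9% against 35.5%. The median difference was -12.0 percentage points for the members and -8.62 points for all genes tested, and that of single members ran from -34.1 to 3.24 points.

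The smallest p belonged to MRPS18B, whose known share fell from 159 of 220 reads (72.3%) to 79 of 200 (39.5%), with an adjusted p of 4.97e-10 in the exact test. Its ISM reads went from 18 to 52 and its genomic reads from 37 to 60. In MRPL37 the known share fell from 69.2% to 45.5% (adjusted p of 4.1e-08, Fisher's exact test), with ISM reads going from 60 to 151. In MRPL3, a homologue of bacterial L3, it fell from 53.0% to 30.2% (adjusted p of 8.21e-05, Fisher's exact test), with 14 and 43 genomic reads. The largest drop was that of MRPL44, from 54.8% to 20.6% (adjusted p of 0.000398, exact test). None of these 4 genes passed the test on the total number of reads.

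The known share ranked the genes alike in both libraries. Spearman's rho between the libraries was 0.930 for the known share and 0.925 for the genomic share over 77 genes. Among members with at least 100 reads, the 4 highest known shares over both libraries together were those of MRPS24 (97.6% and 96.2%), MRPS21 (96.4% and 92.3%), MRPL53 (94.0% and 93.8%) and MRPL51 (91.9% and 87.2%). MRPS21 and MRPL53 changed places between the libraries. The lowest after MRPL33, with no known reads, were MRPS27 (19.2% and 4.03%), MRPL30 (20.9% and 13.8%) and MRPS35 (24.8% and 10.3%). MRPS27, a pentatricopeptide repeat protein of the small subunit, had 47.5% and 76.6% of its reads in genomic models, and MRPS35 had 71.3% and 84.5% in ISM models.

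**Figure D4:**
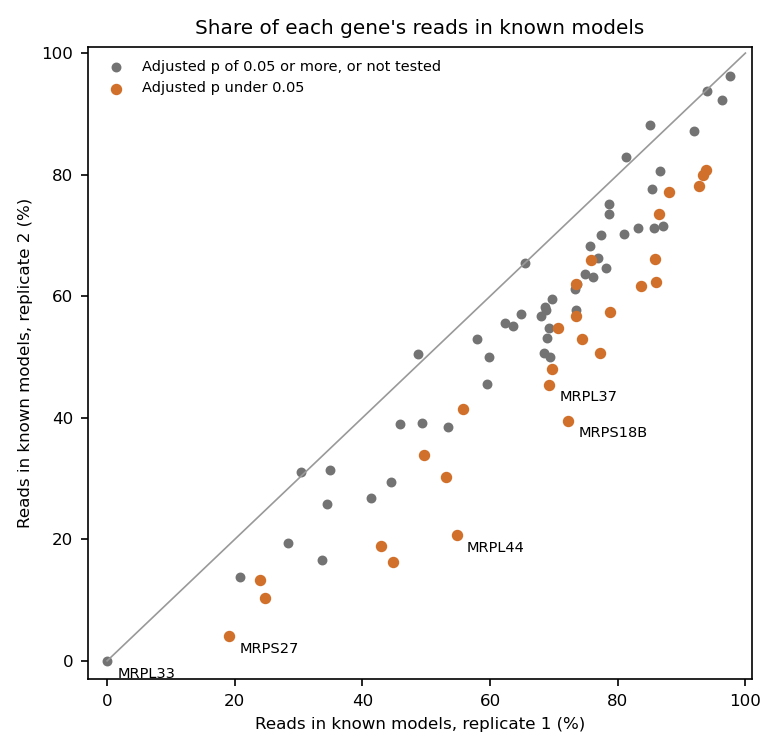
Share of each gene's reads in known models (%) in replicate 2 against replicate 1 for the 78 genes; orange points have an adjusted p under 0.05 in Fisher's exact test and the line marks equal shares. The 27 orange points all lie below the line, and MRPL33 lies at 0 in both libraries.

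The known share was lowest, and the ISM share highest, in the genes with most exons. In the 7 genes whose leading known model has 2 exons, known models held 73.2% of reads in replicate 1 and 66.9% in replicate 2, ISM models 3.74% and 3.79%, and genomic models 18.6% and 24.7%. In the 24 genes with 4 to 5 exons the known share was 74.6% and 63.3% and the ISM share 16.3% and 24.9%. In the 13 genes with at least 8 exons the known share was 56.3% and 40.9%, the ISM share 25.6% and 37.8% and the genomic share 5.68% and 11.8%. The difference between the libraries in the known share was -6.33 points in genes of 2 exons, -8.37 in those of 3, -11.3 in those of 4 to 5, -16.0 in those of 6 to 7 and -15.3 in those of at least 8. Spearman's rho between the exon number and the ISM share was 0.528 and 0.555 in the libraries, and that between length and the known share -0.391 and -0.464, over 77 genes that share the libraries.

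**Figure D5:**
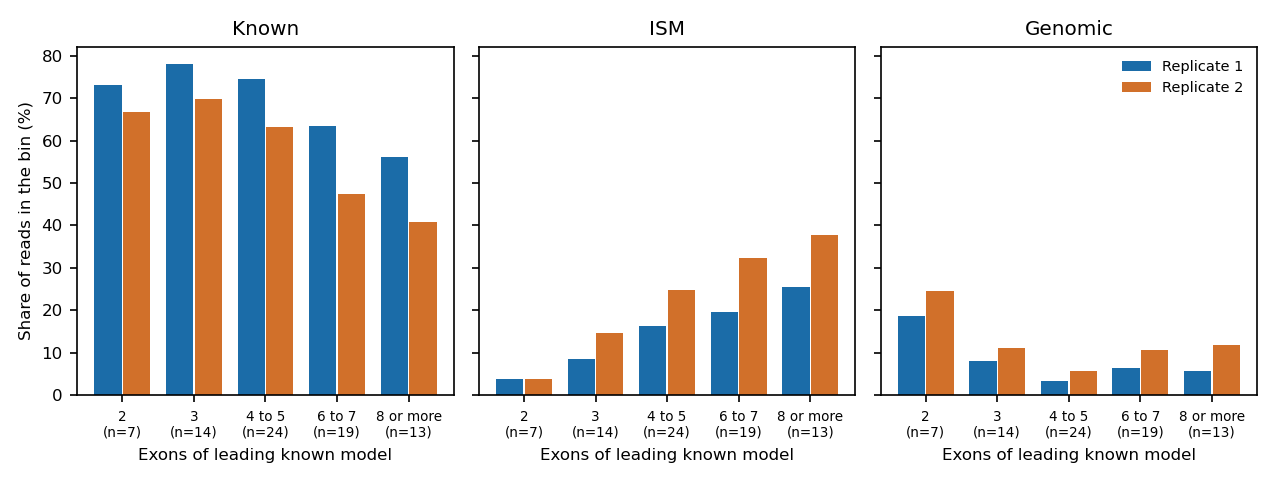
Share of reads (%, axis from 0) in known, ISM and genomic models in replicate 1 (blue) and replicate 2 (orange), with the genes binned by the exon number of their leading known model; n is the number of genes in a bin. The ISM share goes from 3.74% and 3.79% in genes of 2 exons to 25.6% and 37.8% in genes of at least 8.

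Incomplete reads kept the 3′ end far more often than the 5′ end. Of the members' ISM reads, 62.4% in replicate 1 and 64.3% in replicate 2 were in suffix models, which retain the 3′ end, and 2.70% and 4.38% in prefix models, which retain the 5′ end. Another 1211 of the 4460 ISM reads were in models of a single exon. Their lengths were compared with the last exon of a reference transcript, the longest protein-coding one marked as principal in the annotation. Of the 1211 reads, 96.7% were in models no longer than that exon. Of the 1957 genomic reads, 1954 were in single intervals, and 70.4% of these were in models no longer than that exon. The table gives no positions for models, so where these intervals lie was not determined.

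In 67 of the 78 genes the model with most reads was a known one in replicate 1, and in 61 in replicate 2. ISM models led in 6 and 11 genes, genomic models in 4 and 5 and an NNC model in 1 gene in each library. The same model led in both libraries in 72 genes. In MRPL49 a single-exon ISM model of 1631 bases, close to the 1646 bases of the reference transcript's last exon, led with 58 and 72 reads. MRPL49 is overlapped on the opposite strand by FAU, which had 1771 and 2080 reads. In MRPS35 an ISM model of 1104 bases led with 69 and 67 reads, against 1115 bases of last exon, and in MRPS10 one of 1572 bases, the length of its last exon, with 44 and 43 reads. In MRPS27 a genomic model of 1429 bases, shorter than the last exon of 1740 bases, led with 57 and 94 reads. MRPL28, a homologue of bacterial L28, was led by a spliced ISM model of 5 exons and 1484 bases with 90 and 76 reads, ahead of MRPL28-201 with 45 and 25 reads; TMEM8A, which overlaps MRPL28 on its own strand, had 81 and 92 reads. In the other 6 genes (MRPL10, MRPL19, MRPL43, MRPL44, MRPL45 and MRPS2) a known model led in replicate 1 and an ISM or genomic model in replicate 2. The genes of this paragraph were picked with their leading models in view.

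Use of the annotated transcripts was compared within known models. The known model with most reads was set against all other known models of its gene with Fisher's exact test, over 1878 genes that had 2 or more known models with a read and 20 or more known-model reads per library. Of all genes tested 12.5% passed, and of the 53 members tested 3 passed (5.66%). MRPS15-201, of 8 exons, held 187 of 193 known reads of MRPS15 (96.9%) in replicate 1 and 154 of 183 (84.2%) in replicate 2 (adjusted p of 0.000439, exact test). Over the same libraries, the reads of MRPS15-203, a model of 2 exons and 533 bases, went from 5 to 17, and those of MRPS15-204, of 3 exons, from 1 to 12. MRPS7-201, of 5 exons, held 157 of 170 (92.4%) and 90 of 115 (78.3%) known reads (adjusted p of 0.0126, exact test), while MRPS7-203, of 4 exons, went from 12 to 23 reads. MRPS9-201, of 11 exons, held 47 of 48 (97.9%) and 23 of 30 (76.7%) (adjusted p of 0.0384, exact test), while MRPS9-203, of 4 exons, went from 1 to 7. In all 3 genes these other models had fewer exons than the leading one. Over the members tested, the leading model held a median of 92.4% of known reads in replicate 1 and 85.1% in replicate 2, and over all genes tested 89.4% and 83.8%.

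Several members used more than 1 annotated transcript in both libraries. MRPS21 was divided between MRPS21-201 (113 and 105 reads) and MRPS21-202 (48 and 50), MRPL36 between MRPL36-202 (33 and 28) and MRPL36-204 (22 and 24), and MRPL24 between MRPL24-201 (52 and 43) and MRPL24-202 (38 and 28), which are both of 6 exons and 883 bases. In MRPS12, a homologue of bacterial S12, MRPS12-203 had 96 and 65 reads, MRPS12-201 45 and 52 and MRPS12-202 42 and 28. These examples were picked with their values in view.

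MRPL33 had 77 reads in replicate 1 and 81 in replicate 2, a level of 55.1 CPM ± 2.12 (SD, n = 2), and none of them lay in a known model. Its reads were spread over 13 models, none of which had 4 or more exons. An NNC model of 3 exons and 493 bases held 35 and 31 reads (45.5% and 38.3%), and a NIC model of 2 exons and 386 bases held 26 and 28 reads (33.8% and 34.6%). An ISM suffix model of 3 exons and 1360 bases had 8 reads in each library. MRPL33 was the only member led by an NNC model, in both libraries alike.

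The annotated transcripts that come closest are MRPL33-201, of 4 exons and 518 bases, and MRPL33-202, of 3 exons and 404 bases. Both contain the exon of 19 bases shown in capitals above. Counted without that exon, MRPL33-201 would have 3 exons and 499 bases, and MRPL33-202 would have 2 exons and 385 bases. The models with most reads had 3 exons and 493 bases and 2 exons and 386 bases. The model of 493 bases is NNC, so it carries a new splice site and is not MRPL33-201 less that exon alone. The model of 386 bases is NIC. The exon is present in all 5 annotated transcripts of MRPL33 with at least 3 exons. It is the shortest internal exon of the family's reference transcripts, ahead of 31 bases in MRPS9 and 32 bases in MRPS18A. The table holds no exon positions, so whether the exon is absent from the RNA or was passed over when reads were aligned was not tested. BABAM2, which overlaps MRPL33 on the same strand, had 61 and 64 reads of its own.

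The share of spliced reads in NIC and NNC models was also taken for other genes, by the size of their shortest internal exon. Genes were not matched for exon number, and a cause was not tested. Outside the family, 75 genes had a shortest internal exon of at most 20 bases in the reference transcript. Their median share of spliced reads in NIC and NNC models was 32.6%. Among them, 18 had no read in a known model and 21 had more than 50% of spliced reads in NIC and NNC models. In MRPL33 that share was 85.4%. With 21 to 30 bases the median over 248 genes was 25.8%, with 31 to 50 bases over 1279 genes 17.3%, with 51 to 100 bases over 3180 genes 12.9% and above that over 987 genes 8.22%. Members with a shortest internal exon of 31 to 50 bases (13 genes) had a median of 10%, those with 51 to 100 bases (33 genes) 8.22% and those above (24 genes) 5.53%.

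Outside MRPL33, the new models named first were those with the highest smaller count of the 2 libraries. Reads in both libraries therefore follow from the choice. Each of them held at most 16.7% of the reads of its gene in a library. In MRPS11, a homologue of bacterial S11, a NIC model of 6 exons and 1131 bases was found with 25 and 26 reads (16.7% and 15.3% of its gene), and in MRPS12 a NIC model had 15 and 16 reads. In MRPL4 an NNC model of 9 exons and 1435 bases had 23 and 26 reads, next to the annotated MRPL4-201 of 9 exons and 1455 bases. In MRPL28 an NNC model of 5 exons had 17 and 23 reads. Summed per gene, NIC and NNC models held more in MRPS28 and MRPL2, which were picked with their values in view. In MRPS28 these models held 44.9% and 43.7% of the reads, and known models 49.3% and 39.1%. A single NIC model of MRPS28 had 13 reads in each library (18.8% and 14.9%). In MRPL2 NIC and NNC models held 38.6% and 38.5%, and known models 53.4% and 38.5%. By category, 73.8% of the 225 known models of the family had a read in both libraries (67.7 to 79.1%), as did 64.2% of 106 genomic, 49.8% of 494 ISM, 22.7% of 269 NIC and 16.4% of 463 NNC models. Over all models in the table the shares were 57.8%, 46.1%, 34.3%, 15.5% and 10.9%.

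Reads of neighbouring genes could reach some members. On the same strand 23 members are overlapped by another annotated gene, 16 of them by one with reads, and on the opposite strand 38 and 28. MRPS24 shares sequence with the readthrough gene URGCP-MRPS24, which had 8 and 24 reads against 166 and 186 for MRPS24. MRPS16 is overlapped on its own strand by DNAJC9, with 109 reads in each library. Of 75 annotated pseudogenes of the family, 3 had reads, at most 9 in a library, so that few reads were assigned to copies.

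Other genes of mitochondrial translation were taken from lists by role. The 5 subunits with another kind of symbol had a median of 88.9 CPM. DAP3, a GTP-binding protein of the small subunit, had 84.5 and 93.3 CPM (88.9 ± 6.21, SD, n = 2), CHCHD1 had 120 ± 11.4 CPM and PTCD3, a pentatricopeptide repeat protein, 49.3 ± 3.24. Of the 5, 1 passed the binomial test, against 5.05% of all genes: GADD45GIP1, a large subunit protein, had 144 and 105 reads (log2 ratio -0.61, adjusted p of 0.0280, exact test). AURKAIP1, of the small subunit, had 241 and 210 reads (-0.35, adjusted p of 0.133, exact test). Of the 12 translation factors, none passed in the exact binomial test, and 7 were below 0 with a median log2 ratio of -0.02. They ran from 7.21 CPM for the release factor gene MTRF1 to 357 CPM for the elongation factor gene TUFM, and OXA1L, whose product inserts the new proteins into the inner membrane, had 206 CPM.

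Of the 18 genes for assembly of the ribosome and for mitochondrial RNA, 1 passed, beside 5.05% of all genes tested. SLIRP, whose product binds mitochondrial mRNAs together with LRPPRC, had 442 and 365 reads (283 CPM ± 58.9), which is -0.43 on the log2 scale (exact binomial test, adjusted p = 0.00133). LRPPRC itself had 114 and 151 reads, which is 0.25 on the log2 scale (exact test, adjusted p = 0.542). Of the 18, 13 were below 0, with a median log2 ratio of -0.17, beside -0.14 for the 78 members and 0.01 for all genes.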

How the data were processed

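Native RNA of GM12878 was sequenced in 2 libraries. The deposited table holds counts of reads, whole and not normalized by the authors, with a category, an exon number and a length per transcript model; the last 2 are other, non-measured values deposited with it. Reads were aligned to hg38 with minimap2, per the submitters' processing notes; versions, the annotation release and read filters are not given in the sources used here. All 225 known models of the family matched GENCODE release 29 in identifier, exon number and length, so positions came from that release.

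Counts were summed per gene over all categories, and CPM used library totals of 1360368 and 1510998 reads. Ratios had 0.5 reads added to each count. With 1 group of 2 libraries, edgeR's quasi-likelihood test could not be fitted; exact binomial and Fisher's exact tests (scipy 1.17.1, Python 3.11.15) with Benjamini-Hochberg adjustment over all genes compared the libraries, not conditions. They were tested on simulated data. TMM factors came from edgeR 4.0.16 and size factors from DESeq2 1.42.0, in R 4.3.3. Alternatives were other scalings, read minimums and categories.

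Genes were named by rule: the 5 highest and 5 lowest by CPM, those past a threshold, the 3 largest ratios each way and the 4 highest and lowest known shares at 100 reads or more, the 3 smallest Fisher p, the 3 best supported NIC and NNC models, the MRPS18 paralogues and MRPS36. The members and lists were chosen with earlier results of these data known.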

Additional observations from a re-analysis of the deposited data

Results flagged for a closer look

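Among the pseudogenes of the family, which are not members, MRPL45P2 had 9 reads in replicate 1 and 5 reads in replicate 2. It is a transcribed unprocessed pseudogene, and both counts were above the 3 reads that a count of 0 allows. Its parent gene MRPL45 had 76 and 104 reads. The gene and its copy are similar in sequence, and the division of reads between them is uncertain.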

How the results depend on the processing

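No paired analysis was possible because the 2 libraries form 1 group. The single replicates gave 0.740 to 0.825% for the family's share of reads, 57.7 to 69.5% for its known share, 15.5 to 24.3% for its ISM share and 6.87 to 10.6% for its genomic share.

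Counting known models only moved the share of reads to 0.977%, the number of members that differed between the libraries from 2 to 9 (of which 2 were higher in replicate 2; 18.8% of all genes then passed) and the difference of subunit medians to -4.99 CPM. With genomic models left out, 4 of 78 members differed, beside 8.26% of all genes, and the differences in the known and ISM shares were -10.1 and 10.5 points. Among models of 2 or more exons the known difference was -8.74 points and the genomic one 0.0115 points, since nearly all genomic models have 1 exon. As a median over members the genomic difference was 1.18 points. Per kilobase the difference of subunit medians reversed, to 30.3. When ISM, NIC and NNC models were counted beside the known ones, the leading model differed in 20 of 77 members (26.0%, beside 29.97% of all genes) in place of 3 of 53. The 27 members with a differing known share became 33 of 75, 21 of 77 and 25 of 76 with a minimum of 50 reads, without genomic models and against ISM only, beside 45.6%, 26.0% and 35.5% of all genes. Genes with few reads, such as MRPL1, cannot show small differences at this depth.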
